A study of Mus musculus with 20 samples.

Results

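The 10 genes described here are standard markers of endothelial cells, the cells that line blood vessels: Cdh5, Pecam1, Cldn5, Kdr, Flt1, Tie1, Tek, Eng, Emcn and Vwf. They were taken by name, with no threshold on their values, from the 49005 genes that had counts in mouse heart, and all 10 passed the filter on low counts. They were followed through hearts of wild-type C57BL/6 mice, female and male and 12 weeks old, in the groups high-fat females, chow females, high-fat males and chow males. The high-fat groups carry the name PA in the sample labels and were read as the high-fat diet because the series names only that diet and chow. Each group had 5 samples, but chow male 4 was counted per gene rather than per piece of exon, so 5, 5, 5 and 4 libraries were compared.

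Endothelial cells are held to each other by VE-cadherin (Cdh5), PECAM-1 (Pecam1) and the tight-junction protein claudin-5 (Cldn5). Their growth and survival are governed by VEGF, which acts through the receptor VEGFR2 (Kdr) and is also bound by VEGFR1 (Flt1), and by the angiopoietins, which act through TIE2 (Tek) together with TIE1 (Tie1). Endoglin (Eng) is a co-receptor of the BMP and TGF-beta family that works with the receptor ALK1, endomucin (Emcn) is a surface sialomucin of capillary and venous endothelium, and von Willebrand factor (Vwf) is the clotting protein that endothelial cells store and release. In the heart these cells form a dense capillary bed around the muscle fibres, through which fatty acids reach the cardiomyocytes.

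The 19 libraries held 57805110 to 85794067 counts, with 22202 to 24694 genes detected per library. Levels are in CPM, a library's counts scaled to its TMM-adjusted size, in which 3 counts are worth 0.0539 CPM in the smallest library, so depth did not limit any of the 10 genes. The labelled tissue was checked against 8 cardiomyocyte markers such as Myh6 and Tnnt2, whose summed level was 71258 to 82404 CPM in high-fat females, 77739 to 85446 CPM in chow females, 73480 to 79355 CPM in high-fat males and 80938 to 86785 CPM in chow males. High-fat females 4 and 5 stood apart. For each 10 percentage points of GC content, gene levels in them were higher by 0.54 and 0.78 log2 units, while the slopes of the other 17 libraries ran from -0.07 to 0.14. Malat1, a long nuclear RNA, had 117 and 63.9 CPM there but 1132 to 1533 CPM elsewhere, so results are also given without these libraries. The labels do not say that the samples came from separate animals, so the p-values reflect sample-to-sample spread only, which may be technical. In whole hearts, fewer endothelial cells and less RNA per endothelial cell cannot be told apart.

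The promoters of the genes on which the comparisons turn are shown because ETS factors, among them ERG and FLI1, are known regulators of endothelial genes. RefSeq's table for GRCm38.p6 held 7 of the 10 genes. It lists 250 bases before and 50 after each start, and Cdh5, Pecam1 and Vwf were not matched. Capitals mark the ETS motif AGGAAG or its reverse complement CTTCCT, searched on both strands.
Tie1, chr4:118489800-118490099, minus strand: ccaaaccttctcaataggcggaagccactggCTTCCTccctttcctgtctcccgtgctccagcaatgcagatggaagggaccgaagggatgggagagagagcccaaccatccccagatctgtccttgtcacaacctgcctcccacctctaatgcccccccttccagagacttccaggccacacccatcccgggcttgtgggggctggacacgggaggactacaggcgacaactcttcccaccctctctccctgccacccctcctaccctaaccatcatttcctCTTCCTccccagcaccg
Eng, chr2:32646345-32646644, plus strand: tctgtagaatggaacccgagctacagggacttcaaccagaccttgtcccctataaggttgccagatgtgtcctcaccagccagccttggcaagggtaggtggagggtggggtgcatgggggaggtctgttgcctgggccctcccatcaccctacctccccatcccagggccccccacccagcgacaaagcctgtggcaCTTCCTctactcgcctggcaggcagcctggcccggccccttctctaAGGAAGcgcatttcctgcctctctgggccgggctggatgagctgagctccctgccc
Flt1, chr5:147725962-147726261, minus strand: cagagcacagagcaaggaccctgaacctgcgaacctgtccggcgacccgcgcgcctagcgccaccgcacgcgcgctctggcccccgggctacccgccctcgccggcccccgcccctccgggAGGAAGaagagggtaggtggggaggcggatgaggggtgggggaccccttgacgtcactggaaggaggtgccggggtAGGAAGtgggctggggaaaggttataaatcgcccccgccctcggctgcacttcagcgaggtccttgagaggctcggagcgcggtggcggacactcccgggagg
Each of these windows held 2 ETS motifs, as did the window of Emcn, and none was found in those of Tek, Kdr and Cldn5. Of all 32851 promoters in the table, 35.4% held at least 1. The GC box GGGCGG was found 3 times in Flt1, 2 times in Kdr and 1 time in Cldn5, against 35.7% of all promoters with at least 1, and TATAAA was found 1 time, in Flt1, against 13.6%. No ETS motif overlapped another motif that was searched. These matches describe letters and not binding.

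The genes were expressed at unequal levels. Per kilobase of exon, Eng and Cdh5 stood highest, at means over the 19 libraries of 41.9 and 41.8 CPM per kb, and Eng was above Cdh5 in 10 of 19 libraries. Kdr, Tie1 and Pecam1 formed a middle set at 29.3, 28.1 and 27.3 CPM per kb with overlapping ranges. Tek followed at 17.3 CPM per kb and was separated from its neighbours on both sides, since its range of 15.97 to 18.9 overlapped neither that of Pecam1, 24.04 to 31.3, nor that of Emcn, 7.84 to 11.7. Emcn, Flt1, Cldn5 and Vwf closed the order at 9.82, 8.13, 7.19 and 5.77 CPM per kb, each overlapping the next. A read that spans pieces counts in each, and the genes have from 1 piece (Cldn5) to 73 pieces (Vwf). Genes of many pieces are raised against Cldn5 by this counting. The place of Cldn5 near the end is therefore not shown to be its place in transcript level. The order depends on which exons are read: with the single piece of largest mean count in place of the sum, Tie1 led at 38.3 CPM per kb, and Eng and Cdh5 stood at 25.1 and 21.1.

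**Figure D1:**
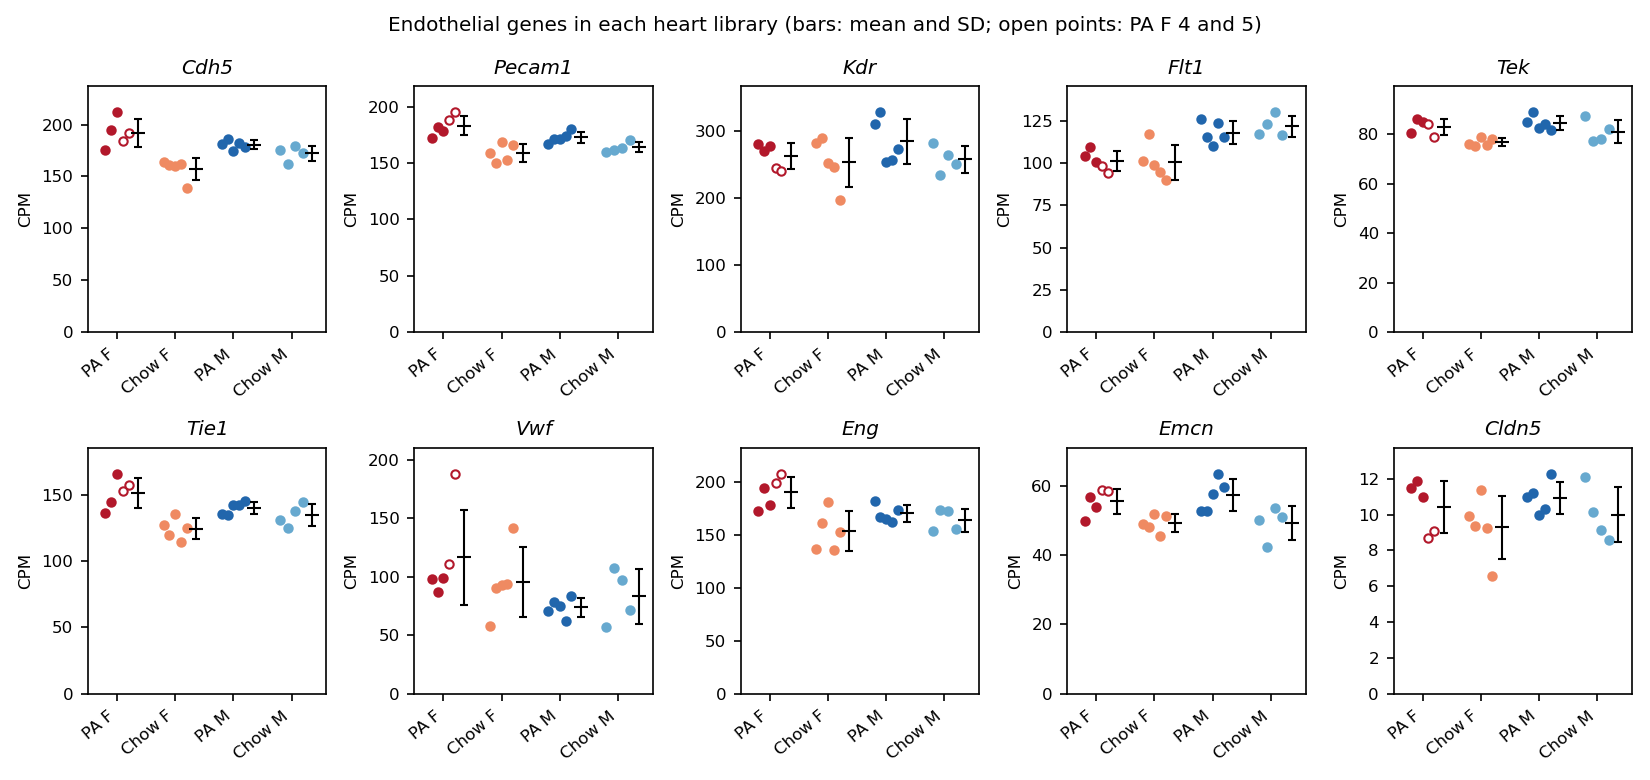
Level of each of the 10 endothelial genes (y axis, CPM, from 0) in every library of high-fat females (PA F), chow females, high-fat males (PA M) and chow males, with the mean and SD of each group as a bar and high-fat females 4 and 5 as open points. Cdh5, Pecam1 and Tie1 were higher in all 5 high-fat females than in any chow female, and Vwf was the most scattered gene, from 56.6 to 188 CPM. The share of all genes tested whose groups do not overlap was not counted.

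The first question was how the diet affects female hearts. On the high-fat diet 4 genes rose: the junction genes Cdh5 and Pecam1, the receptor Tie1 and the co-receptor Eng. These 4 of 10 compare with 2.53% of the 18069 genes tested, of which 1.67% were called higher. The log2 change was positive in 10 of 10 genes, with a median of 0.19 against -0.02 over all genes tested. Summed over the 10 genes, the level was 1282 to 1421 CPM in high-fat females and 1130 to 1232 CPM in chow females, without overlap. How many of all genes, or of other sums of 10 genes, are without overlap was not counted, so it is not known how unusual this is.

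Among the junction genes, Cdh5 (chr8:104101625-104144511, plus strand) stood at 176, 194, 212, 184 and 192 CPM in high-fat females, against 164, 161, 160, 162 and 139 CPM in chow females. The groups did not overlap, and chow female 5 lay well below the rest of its group. The log2 change was 0.29 ± 0.05 (SE), with an adjusted p of 0.0094 by edgeR's quasi-likelihood test, adjusted by Benjamini and Hochberg's method. Pecam1 (chr11:106654217-106750628, minus strand) was measured at 173, 182, 178, 188 and 195 CPM in high-fat females, against 159, 150, 169, 153 and 166 CPM in chow females. Every high-fat female lay above every chow female, and the log2 change was 0.20 ± 0.04 (edgeR, adjusted p = 0.0195). Cldn5, a gene of a single exon piece on chromosome 16, averaged 10.4 ± 1.45 CPM in high-fat females and 9.29 ± 1.75 CPM in chow females (SD, n = 5 each). Its groups overlapped and its log2 change of 0.17 had a 95% interval from -0.10 to 0.44.

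Of the growth factor receptors, Tie1 (chr4:118471191-118490061, minus strand) stood at 137, 145, 166, 153 and 158 CPM in high-fat females, against 127, 120, 136, 114 and 126 CPM in chow females. The groups did not overlap, though high-fat female 1 was within 1 CPM of chow female 3. The log2 change of Tie1 was 0.28 ± 0.06 (edgeR, adjusted p = 0.0156). Its partner Tek on chromosome 4 averaged 82.9 ± 3.13 CPM in high-fat females and 76.9 ± 1.61 CPM in chow females (SD, n = 5 each), and 4 of 5 high-fat females lay above all chow females. The change of 0.11 in Tek was not called after adjustment (adjusted p = 0.17 in edgeR). The VEGF receptors moved least: Kdr averaged 263 ± 19.3 CPM in high-fat females and 253 ± 36.8 CPM in chow females, and Flt1 101 ± 5.85 and 100.5 ± 10.3 CPM (SD, n = 5 each). The 95% intervals of their log2 changes ran from -0.15 to 0.25 for Kdr and from -0.12 to 0.15 for Flt1.

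Eng (chr2:32646595-32682669, plus strand) was measured at 172, 194, 178, 198 and 207 CPM in high-fat females, against 136, 161, 181, 135 and 153 CPM in chow females. Chow female 3 lay above 2 of the high-fat females, so the groups overlapped. The log2 change of Eng was 0.31 ± 0.08 (edgeR, adjusted p = 0.0357). It was 0.24 without high-fat females 4 and 5 and no longer called (adjusted p = 0.0804 in edgeR). Emcn on chromosome 3 averaged 55.6 ± 3.7 CPM in high-fat females and 49.3 ± 2.55 CPM in chow females, a log2 change of 0.17 that was not called (adjusted p = 0.18 in edgeR). Vwf on chromosome 6 stood at 97.6, 87.3, 98.8, 111 and 188 CPM in high-fat females, against 57.6, 89.9, 93.2, 93.7 and 142 CPM in chow females. High-fat female 5 and chow female 5 were each far above the others of their group, and the 95% interval of the Vwf change spanned -0.19 to 0.77.

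These calls use a spread pooled over the sexes and diets. When the 10 female libraries were fitted by themselves, the model gave changes of 0.29, 0.21, 0.29 and 0.31 for Cdh5, Pecam1, Tie1 and Eng. It called 0 of them, with adjusted p of 0.14 to 0.21 in edgeR, and called 21 of 17193 genes in all. Without high-fat females 4 and 5, Cdh5 (0.30), Pecam1 (0.16) and Tie1 (0.26) were called higher, 3 of 10 genes against 2.45% of 18297 genes tested. In that fit the median of the 10 genes was 0.14. Single libraries ended calls too: that of Pecam1 without chow female 4 (adjusted p = 0.0563 in edgeR), and that of Eng without chow female 1, 4 or 5 or high-fat female 2, 4 or 5 (adjusted p of 0.0561 to 0.0944). With no expression filter Pecam1 and Eng were lost (adjusted p of 0.0773 and 0.0753), and with the largest exon piece of each gene Pecam1, Tie1 and Eng (0.189, 0.0578 and 0.187). Transcripts of Tie1 and Eng are rich in GC, at 57.6% and 57.4% against a median of 49.7% over genes tested, and Cdh5 and Pecam1 stand at 52.2% and 50.2%. High-fat females 1 to 3 were above the mean of chow females by 0.16, 0.31 and 0.43 log2 units in Cdh5 and by 0.13, 0.22 and 0.42 in Tie1. They were above it by 0.18, 0.34 and 0.22 in Eng and by 0.12, 0.20 and 0.17 in Pecam1. In high-fat females 4 and 5 the values were 0.23 and 0.29 for Cdh5 and 0.30 and 0.34 for Tie1. They were 0.38 and 0.44 for Eng and 0.24 and 0.29 for Pecam1. The part of GC content in these changes was not tested.

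In males, 0 of the 10 genes were called between the diets by edgeR, where 0.764% of the 18069 genes were. The median log2 change of the 10 was 0.06 against 0.002 over all genes, and DESeq2 called 0 of the 10 as well, and 256 of all 18069 genes. Emcn, the member with the strongest signal in males and the only one with an unadjusted p under 0.05, stood at 52.9, 52.8, 57.7, 63.6 and 59.7 CPM in high-fat males, against 50.3, 42.4, 53.7 and 51.1 CPM in chow males. High-fat males were mostly higher, but 2 of them lay under the highest chow male, and the log2 change of 0.22 ± 0.07 had an adjusted p of 0.29 in edgeR. Mean Cdh5 was 181 ± 4.42 CPM in the 5 high-fat males and 172 ± 7.37 CPM in the 4 chow males (± SD), and mean Tie1 was 140 ± 4.75 and 135 ± 8.58 CPM. The intervals of the male change, -0.05 to 0.19 for Cdh5 and -0.07 to 0.19 for Tie1, reach up to the lower part of the female intervals, which ran from 0.17 to 0.40 and from 0.16 to 0.40.

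The female and male changes were compared directly as an interaction. None of the 10 genes, and 0 of 18069 genes in all, passed the adjusted threshold in edgeR, while 1839 genes and 3 of the 10 had an unadjusted p under 0.05. DESeq2 called 58 genes in that comparison and 0 of the 10. The female change exceeded the male one by 0.22 in Cdh5 (unadjusted p = 0.0124, adjusted p = 0.39 in edgeR), by 0.23 in Tie1 and by 0.25 in Eng. A difference between the sexes in the diet change was therefore not shown for these genes.

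Averaged over the sexes, Cdh5 (log2 change 0.18), Pecam1 (0.14), Tie1 (0.17) and Emcn (0.20) were called higher on the high-fat diet, 4 of 10 genes against 2.93% of all genes (1.73% higher), with adjusted p in edgeR of 0.0168, 0.0197, 0.0332 and 0.0425. With high-fat females 4 and 5 left out, again 4 of 10 were called, against 3.86% of all genes called higher. Eng, called in females, had an average change of 0.18 with an adjusted p of 0.0858 (edgeR). DESeq2 called 6 of 10, adding Eng (adjusted p = 0.0457) and Tek (adjusted p = 0.0449), and it called 518 of all 18069 genes higher. These calls lay close to the threshold. The count was between 1 and 5 when single libraries were left out, and it was 1 or 2 without chow female 2 or 4, chow male 1, 2 or 3, or high-fat male 3, 4 or 5.

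**Figure D2:**
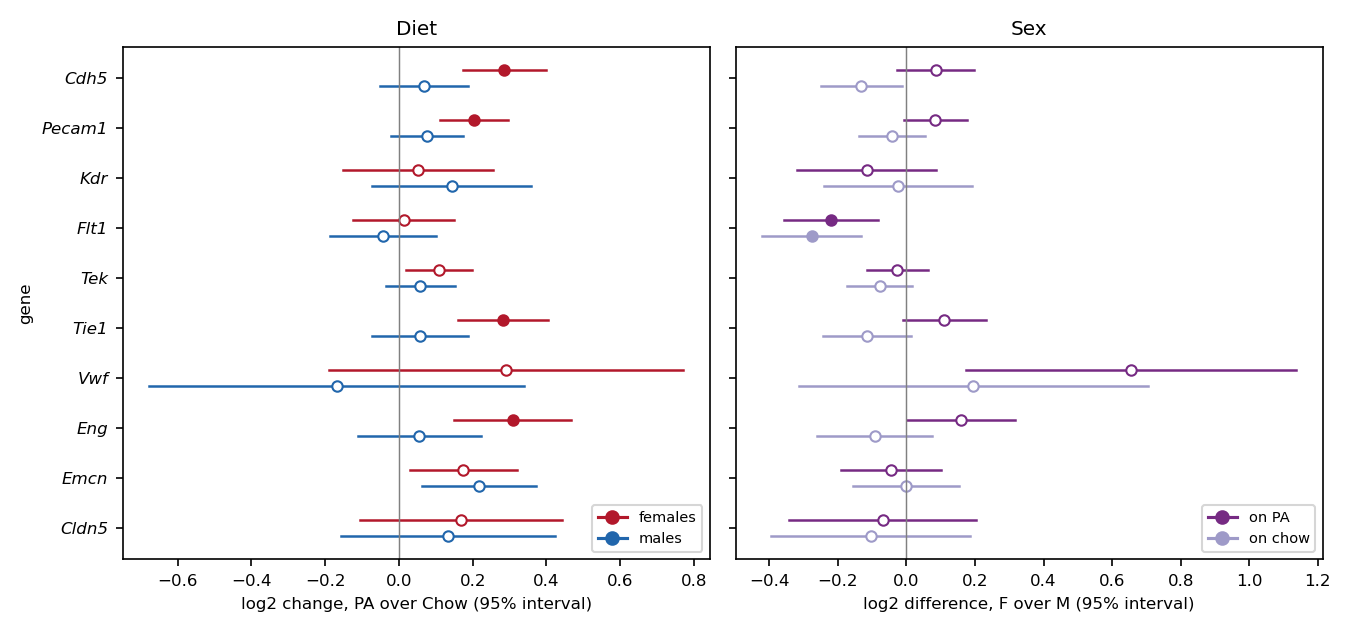
Log2 changes of the 10 genes with 95% intervals from the edgeR fit (x axis, log2 units; y axis, gene), on the left high-fat (PA) over chow in females and males, and on the right females over males on the high-fat diet and on chow. Filled points passed an adjusted p of 0.05: Cdh5, Pecam1, Tie1 and Eng by diet in females, and Flt1 by sex on both diets.

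Comparing the sexes on each diet, Flt1 was the one gene of the 10 that was called, and it was lower in females. Flt1 (chr5:147561604-147726011, minus strand) encodes VEGFR1, which binds VEGF-A tightly and is known as a trap that limits signalling through VEGFR2. On the high-fat diet it stood at 104, 110, 101, 98.1 and 94.3 CPM in females, against 126, 115, 110, 124 and 115 CPM in males. The groups did not overlap, but high-fat female 2 and high-fat male 3 were within 1 CPM of each other. The log2 difference was -0.22 ± 0.06 (edgeR, adjusted p = 0.0378), 1 of 10 genes against 10.3% of all genes called (3.92% lower). On chow Flt1 stood at 102, 117, 98.9, 94.9 and 89.9 CPM in females, against 117, 123, 130 and 117 CPM in males. Chow female 2 lay within the male range and the other 4 females lay below every male, with a log2 difference of -0.28 ± 0.07 (edgeR, adjusted p = 0.0327), 1 of 10 genes against 3.22% of all genes (1.49% lower).

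Both Flt1 calls depended on single libraries. On the high-fat diet the difference was -0.18 without high-fat females 4 and 5 and was not called (adjusted p = 0.106 in edgeR), where 10.4% of all genes were. The call was likewise lost without high-fat female 3, 4 or 5 or high-fat male 1, 2, 4 or 5, each left out alone (adjusted p of 0.0508 to 0.087). On chow the call was lost without chow female 1, 3, 4 or 5 or chow male 1, 2 or 3 (adjusted p of 0.0527 to 0.115). Omitting high-fat females 4 and 5 left a chow difference of -0.27 with an adjusted p of 0.0078 (edgeR), 1 of 10 genes against 5.46% of all genes called lower. With the largest exon piece, the end of the full-length transcript, the difference was -0.07 on the high-fat diet and -0.15 on chow (adjusted p of 0.42 and 0.28 in edgeR).

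Vwf was higher in all 5 high-fat females than in any high-fat male, at 70.5, 78.5, 74.8, 62.5 and 83.7 CPM in the males against the female values above. Its log2 difference of 0.65 ± 0.23 was not called by edgeR (adjusted p = 0.0738) and was called by DESeq2. It was 0.35 without high-fat females 4 and 5, with an adjusted p of 0.29 (edgeR). The other 8 genes overlapped between the sexes on both diets. How many of all genes tested did not overlap was not counted, for sex or for diet. The median difference of the 10 genes, females over males, was 0.03 on the high-fat diet and -0.09 on chow, against 0.01 and 0.01 over all genes tested.

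Flt1 is annotated with a short protein-coding transcript that ends in an intron, beside the full-length one. The secreted form of VEGFR1, which lacks the membrane and kinase parts, is known to come from transcripts that end early in this way. The deposited pieces separate the ends. A piece of 4066 bases (chr5:147635159-147639224, GRCm38) belongs only to the short transcript, and the last piece of 2803 bases (chr5:147561604-147564406) only to the full-length transcript. Reads from unspliced RNA would also fall in the short transcript's piece. The ratio of their levels per kilobase, short over full-length, was 0.297, 0.272, 0.275, 0.101 and 0.0794 in high-fat females, against 0.329, 0.307, 0.297, 0.358 and 0.337 in chow females. It was 0.339, 0.376, 0.358, 0.420 and 0.383 in high-fat males, against 0.328, 0.368, 0.334 and 0.317 in chow males.

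High-fat females lay lowest. Each was below every chow female, though high-fat female 1 and chow female 3 were equal to 3 digits, and each was below every male of either diet. The mean log2 ratio differed by -0.87 between high-fat and chow females, and by -0.21 without females 4 and 5. High-fat females differed from high-fat males by -1.07 on the same scale, or by -0.41 without females 4 and 5. The difference between high-fat and chow males was 0.16 and that between chow females and chow males -0.05. The ratio was chosen after its values had been seen, so these differences are a description with no test.

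The short transcript's piece carried this difference. Its level was 1.33 ± 0.67 CPM per kb in high-fat females and 2.13 ± 0.10 in chow females, while the full-length end stood at 6.56 ± 0.49 and 6.56 ± 0.55 CPM per kb (SD, n = 5 each). In high-fat females without 4 and 5, the short piece averaged 1.81 ± 0.15 and the full-length end 6.43 ± 0.28 CPM per kb (SD, n = 3). In high-fat females 4 and 5, where the short piece was at 0.739 and 0.489 CPM per kb, Malat1 was also low. So were 16 pieces of the 10 genes annotated only as retained introns, at 0.123 and 0.0897 CPM per kb against 0.155 to 0.212 in the other libraries. The short piece is also poorer in GC than the full-length end, at 41.9% against 48.2%. The part of these in the ratio was not tested, and in high-fat females 1 to 3 Malat1 stood at 1397, 1202 and 1132 CPM and the retained-intron pieces at 0.178, 0.161 and 0.180 CPM per kb.

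**Figure D3:**
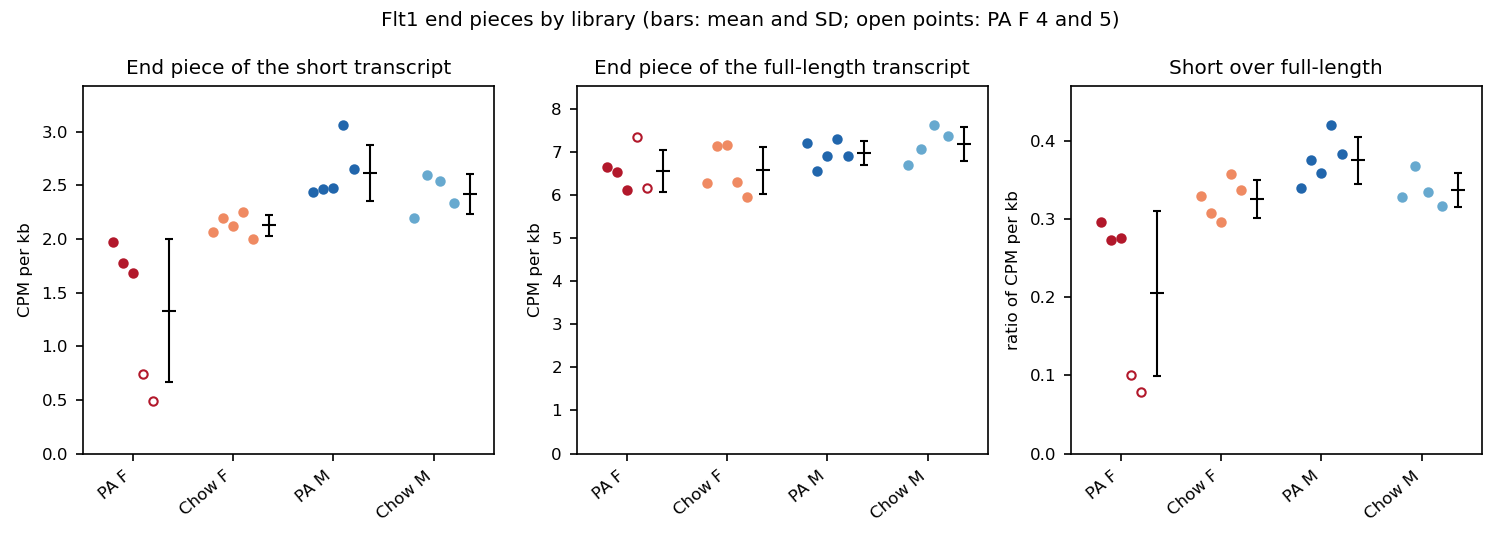
Level per kilobase of the end piece of the short Flt1 transcript, of the end piece of the full-length transcript, and their ratio (y axes from 0), in each library of the 4 groups with mean and SD. The ratio was 0.0794 to 0.297 in high-fat females (PA F) and 0.297 to 0.420 in all other libraries, and the open points are high-fat females 4 and 5.

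The ligands of these receptors were examined as a list of 9 VEGF, placental growth factor, angiopoietin and apelin genes. None was called by diet in females or in males, against 2.53% and 0.764% of all genes, and the medians were -0.10 and -0.10. Between the sexes on the high-fat diet 1 of 9 was called, against 10.3% of all genes: Vegfa, the main ligand of both VEGF receptors, averaged 265 ± 89.5 CPM in high-fat females and 437 ± 29.3 CPM in high-fat males (SD, n = 5 each). Its log2 difference was -0.72 (edgeR, adjusted p = 0.0111), and -0.41 without high-fat females 4 and 5 (adjusted p = 8.6e-05 in edgeR). On chow Vegfa averaged 341 ± 11.3 CPM in females and 470 ± 22.5 CPM in males (SD, n = 5 and 4), and its log2 difference of -0.46 was not called (adjusted p = 0.17 in edgeR). It was called without high-fat females 4 and 5, again at -0.46 (adjusted p = 4.1e-06 in edgeR). Of 9 further receptors and co-receptors, among them Flt4, Nrp1 and Robo4, 0 were called in any of the 6 comparisons. Between 0% and 10.3% of all genes were called in these comparisons.

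Partners of endoglin gave 2 calls of 13 by diet in females, against 1.67% of all genes called higher, with a list median of 0.04 and one of -0.02 over all genes. Acvrl1, which encodes ALK1, averaged 39.002 ± 3.55 CPM in high-fat females and 31.5 ± 2.57 CPM in chow females (log2 change 0.31, adjusted p = 0.0421 in edgeR), and Tgfbr2, the type II receptor of TGF-beta, changed by 0.27 (adjusted p = 0.0237). Neither was called without high-fat females 4 and 5 (adjusted p of 0.089 and 0.0543 in edgeR). Of 13 endothelial transcription factors tested, with a median of 0.04, 1 was called, Sox18, against 1.67% of all genes called higher. Sox18 was higher in high-fat females by 0.34 (adjusted p = 0.0305 in edgeR), and it too was lost without the pair (adjusted p = 0.0679). Erg and Fli1, whose proteins bind the motif shown above, were not among the calls.

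Of 22 other endothelial adhesion and surface genes tested, 3 were called higher by diet in females, against 1.67% of all genes, with a list median of 0.13. Cd34, a sialomucin of capillary endothelium, averaged 158 ± 7.26 CPM in high-fat females and 135 ± 2.45 CPM in chow females (log2 change 0.23, adjusted p = 0.0235 in edgeR). Mmrn2, a matrix protein of vessels, rose by 0.38 (adjusted p = 0.0167). Thbd, the anticoagulant receptor thrombomodulin, rose by 0.33 (adjusted p = 0.0229), a call lost without high-fat females 4 and 5 (adjusted p = 0.0595). Of 10 arterial genes and of 10 venous, lymphatic and endocardial genes, 0 were called by diet in either sex, with medians in females of 0.19 and 0.12. The share of all genes called was 2.53% in females and 0.764% in males.

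Genes of capillary lipid handling gave the male diet calls. Cd36, the fatty acid translocase, averaged 2976 ± 93.7 CPM over the 5 high-fat males and 2252 ± 124 CPM over the 4 chow males (± SD), a log2 change of 0.40 (edgeR, adjusted p = 0.0264). Fabp4, a fatty acid binding protein of capillary endothelium and fat cells, averaged 518 ± 7.84 CPM in high-fat males and 397 ± 32.6 CPM in chow males (log2 change 0.38, adjusted p = 0.0128 in edgeR). These were 2 of 9 genes, against 0.764% of all genes called, with a list median of 0.07. In females 0 of 9 were called, against 2.53% of all genes, and 0 of 9 were called for the interaction. The summed level of the 9 genes was 3985 and 3213 CPM in high-fat females 4 and 5 and 6011 to 7101 CPM in the other high-fat females, against 6712 to 7789 CPM in chow females. Cd36 is also made by cardiomyocytes.

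Between the sexes, Ace, the angiotensin-converting enzyme of endothelium, was lower in females on both diets, at 47.7 ± 3.61 CPM in high-fat females against 66.6 ± 4.14 CPM in high-fat males, and at 44.8 ± 2.24 CPM in chow females against 73.2 ± 8.14 CPM in chow males. The log2 differences were -0.48 (adjusted p = 0.00039) and -0.71 (adjusted p = 1.3e-05) in edgeR. Higher in females on the high-fat diet were Cd34 (0.35), Mmrn2 (0.35) and Podxl (0.26), a sialomucin of the endothelial surface. With Ace and 1 further gene these were 5 of 22 surface genes, against 10.3% of all genes. Also called higher there were the arterial gap-junction gene Gja4 (0.45) and the venous receptor Ephb4 (0.32), 1 of 10 genes in each list. These counts are near the 10.3% of all genes called. The arterial list had a median of 0.09 with 8 of 10 genes positive. The venous, lymphatic and endocardial list had a median of -0.08 with 4 of 10 positive.

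**Figure D4:**
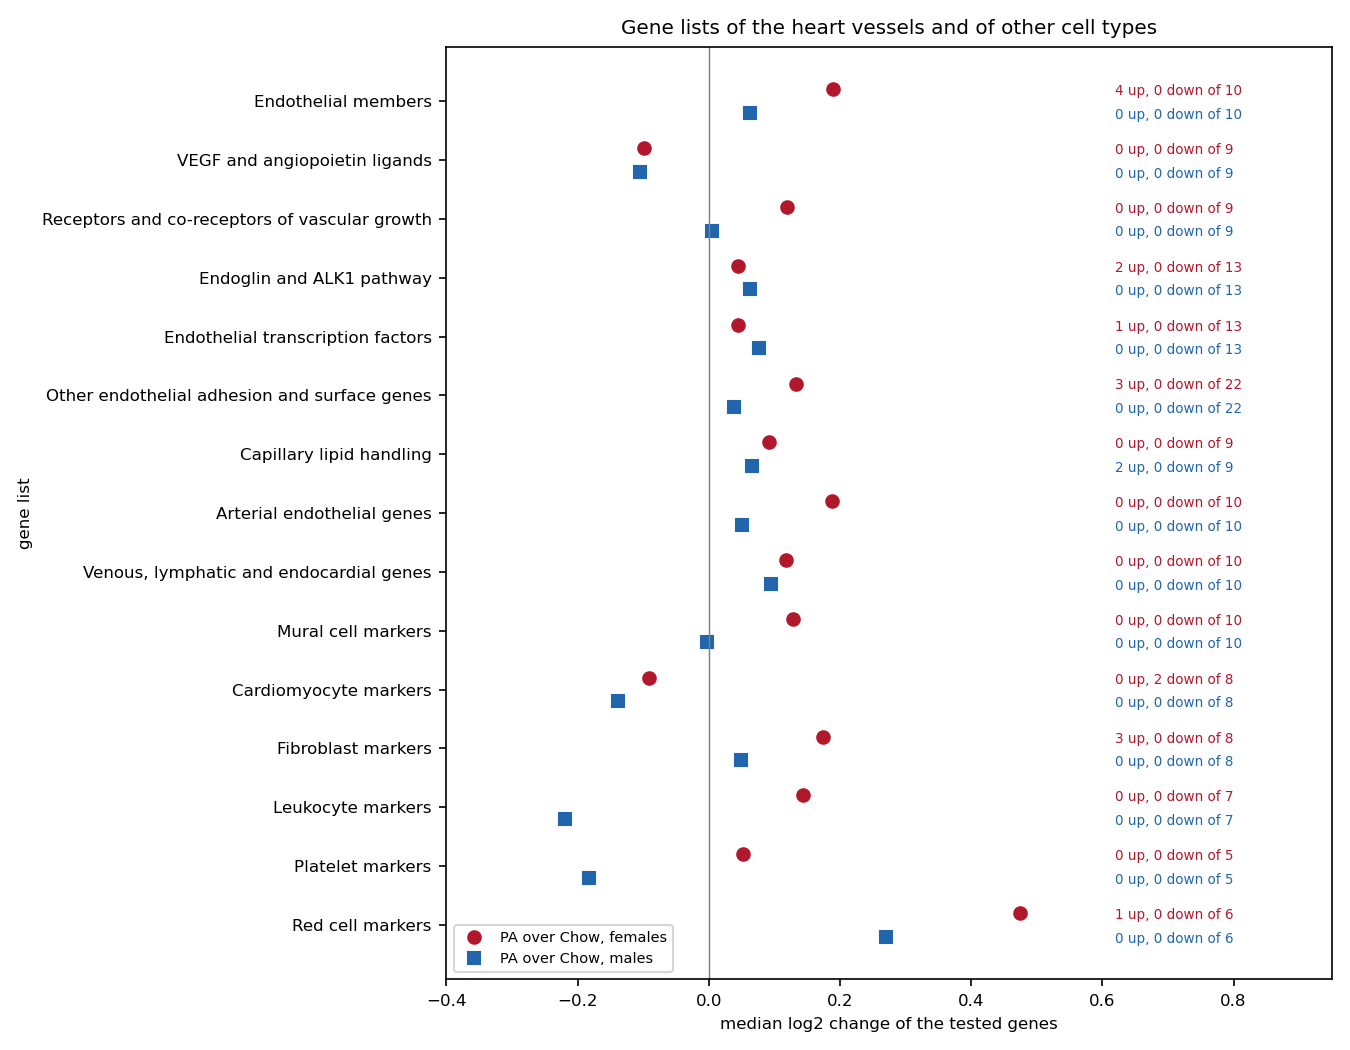
Median log2 change of the tested genes of each list (x axis, high-fat, PA, over chow) in females and in males, with the number called higher (up) and lower (down) of those tested printed on the right. The 10 endothelial genes had medians of 0.19 in females and 0.06 in males, and lists of other cell types stand below them.

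Markers of other cell types moved in the same comparison. In females on the high-fat diet, 3 of 8 fibroblast markers were called higher, against 1.67% of all genes: Col1a2 by 0.47, Col3a1 by 0.52 and Col1a1 by 0.50. The summed level of the 8 was 1534 to 1852 CPM in high-fat females and 1244 to 1397 CPM in chow females. Of 8 cardiomyocyte markers, Tnnt2 was called lower by a log2 change of -0.31, and so was Nppa, at 61.7 ± 18.8 CPM in high-fat females and 124 ± 23.6 CPM in chow females. Of all 18069 genes tested, 156 were called lower. In males 0 of 8 fibroblast and 0 of 8 cardiomyocyte markers were called by diet, against 0.764% of all genes. The cardiomyocyte median was -0.14 in males and -0.09 in females. The cardiomyocyte sum was 73480 to 79355 CPM in high-fat males and 80938 to 86785 CPM in chow males. Mural cell markers summed to 2492 to 2736 CPM in high-fat females and 2639 to 2832 CPM in chow females, leukocyte markers to 87.7 to 126 and 102 to 119 CPM, platelet markers to 12.8 to 14.9 and 11.8 to 13.9 CPM, and red cell markers to 220 to 420 and 235 to 297 CPM. Platelets also hold Vwf and Pecam1. The part of these shifts and of platelets in the endothelial changes was not tested.

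The 10 genes did not all vary together. Over the 17 libraries without high-fat females 4 and 5, the correlation of a gene with the mean of the other 9, on standardised log2 CPM, was highest for Cdh5 (r = 0.82) and Tie1 (0.76). It was lower for Kdr (0.41) and Flt1 (0.30) and negative for Vwf (-0.36). Libraries were the points and shared the same scaling. Outside the 10, and among genes of at least 1 CPM, the genes most like their mean over those 17 libraries were Efnb1 and App (r = 0.90 each), Mgll (0.89), Capn2 (0.88) and Sipa1l1 (0.87). These are descriptions and carry no p.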

How the data were processed

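Polyadenylated RNA of mouse heart was sequenced on an Illumina NovaSeq, per the labels' protocols. The deposited values are whole-number counts, given in 19 files for 425461 pieces of exons, and in 1 file, chow male 4, for 49315 genes; that library has another scale and enters no comparison. A read that spans pieces counts in each. Salmon 1.5.1, DESeq2 1.32.0 and GRCm39 are named in the submitters' processing notes. Positions of 91.4% of genes matched GENCODE vM21 of GRCm38, so coordinates are GRCm38. Pieces were summed per gene ID. Of 33309 pieces with joined IDs, 27829 were given to 1 gene and 5480 were not used, which held 1.35% to 1.49% of the counts. None of the 10 genes shared a piece with another gene. The strand of counting is not given in the sources used here, and on the other strand Eng overlaps Fpgs at its end and Cdh5 overlaps Gm29682.

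Genes were tested in edgeR 4.0.16 (R 4.3.3) by the quasi-likelihood F-test, with TMM scaling, the package's expression filter, 1 model of 4 groups with 15 residual degrees of freedom, and Benjamini-Hochberg adjustment over 18069 genes at a threshold of 0.05. Floors cover counting error only. The members, lists and tests were chosen with earlier results of these data known. The genes named are the 10, and of each other list and comparison up to 4 called members with the smallest p, some of them in the closing section. In simulated data where 200 genes were changed, the model recovered, at a 1.5-fold change, 69% for diet in females, 60% in males, 36% for the interaction, 79% for the average, 61% for sex on chow and 68% on high fat. The changes that this model called among the 10 genes, at most 0.31 log2 units, were smaller than 1.5-fold. The simulated libraries also had no GC shift, so these rates do not give the recovery for changes of that size here. Etv2, Cldn3, Cd3e, Gp9 and Treml1 failed the filter. Alternatives were DESeq2 1.42.0, its size factors, no filter, a minimum of 1 CPM in 5 libraries, fits to the compared groups alone, a block for replicate number, the largest exon piece, omission of high-fat females 4 and 5, and each library left out.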

Additional observations from a re-analysis of the deposited data

Results flagged for a closer look

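Of 44 sets of values examined, the 10 genes and the Flt1 ratio in 4 groups each, 2 held a library whose gap to its nearest neighbour was too large a share of the group's range, and chance alone gives about 1 in 20. Chow female 5 stood at 139 CPM for Cdh5, with a gap to the other chow females of 0.863 of the range, and was the lowest of its group. High-fat female 5 stood at 188 CPM for Vwf, with a gap of 0.766 of the range, and was the highest of its group. With single libraries left out, the change of Cdh5 by diet in females lay between 0.24 and 0.31 and was called in all 19 fits.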

How the results depend on the processing

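Diet in males and the interaction gave 0 called members under every alternative run. For diet in females the count of 4 became 2 with no filter, 0 with only the groups compared, 1 with the largest exon piece and 2 to 4 with single libraries left out, lowest without chow female 4; Cdh5 and Tie1 were called in all 19 such fits. The average diet effect gave 6 by DESeq2, 0 with no filter, 2 with the largest piece and 1 to 5 with libraries left out. Sex on chow gave 0 with no filter, 0 with the largest piece and 0 to 1 with libraries left out. Sex on high fat gave 2 by DESeq2, 0 with no filter, 0 with only the groups compared, 0 without high-fat females 4 and 5, 0 with the largest piece and 0 to 1 with libraries left out. The cause of these changes was not tested. With no filter 33116 genes were tested. The 2-group fits hold fewer samples. For diet in females they called 21 genes in all, against 457 in the main fit, and for sex on high fat 547 against 1866. For diet in males they called 572 against 138, and for sex on chow 1538 against 582.

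Signs changed in values that were not called. Without high-fat females 4 and 5 they were Vwf -0.014 for diet in females and -0.090 on average, Flt1 0.0094 on average, Emcn 0.0014 for sex on chow and Cldn5 0.063 for sex on high fat. With the largest piece they were Kdr -0.019 for diet in females, Tek -0.063 and Emcn 0.065 for the interaction, Pecam1 0.012, Kdr 0.071 and Tek 0.00069 for sex on chow, and Emcn 0.047 for sex on high fat. With single libraries left out the ranges were Kdr -0.027 to 0.10 and Flt1 -0.025 to 0.074 for diet in females, Emcn -0.082 to 0.019 and Cldn5 -0.068 to 0.12 for the interaction, Flt1 -0.034 to 0.015 and Vwf -0.059 to 0.15 on average, and Kdr -0.077 to 0.054 and Emcn -0.069 to 0.042 for sex on chow.

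Same-numbered samples correlated at -0.07 to 0.16 and 6 of 19 libraries were closest to their own number. The count expected without pairing was not worked out, so these values do not settle whether the numbers pair the samples. With a replicate block 3 members were called by diet in females (Eng had an adjusted p of 0.0532 in edgeR), 3 on average, and Cldn5 for the interaction was -0.0070. The log2 difference of the Flt1 ratio without single libraries, chosen after seeing the data, lay between -1.05 and -0.58 for diet in females, 0.11 and 0.20 for diet in males, -1.26 and -0.78 for sex on high fat and -0.085 and -0.0068 for sex on chow.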

Other observations

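Other genes called between the sexes in the lists were as follows, as log2 differences of females over males in the edgeR fit. On the high-fat diet, Hhex (0.72), a transcription factor of early endothelium, Lyl1 (0.48), Id2 (0.52), Smad6 (0.30) and Tgfbr2 (0.22) were higher in females, and Klf4 (-0.49), a factor induced by flow, and Cd36 (-0.40) were lower. Of 13 endothelial transcription factors tested, 2 were called higher and 1 lower, against 10.3% of all genes called. Only 4 of the 13 were positive, with a median of -0.06. Of 13 partners of endoglin 3 were called higher and 7 were positive, with a median of 0.11. Of 10 mural cell markers 4 were called, against 10.3% of all genes: Cspg4 (0.54), Notch3 (0.29), Pdgfrb (0.32) and Kcnj8 (0.24), all higher in females. Also higher were 6 of 8 fibroblast markers, led by Col1a2 (0.41), Lum (0.60), Col1a1 (0.44) and Col3a1 (0.49), the macrophage marker Cd68 (0.61) and the platelet gene Pf4 (0.36). Cd68 was 1 of 7 leukocyte markers tested, of which 5 were positive, with a median of 0.11. Pf4 was 1 of 5 platelet markers tested, of which only 2 were positive, with a median of -0.41, so the platelet list was not higher as a whole. On chow, the fibroblast markers Lum (0.67) and Tcf21 (0.45) were higher in females, and the platelet integrin Itga2b (-0.72) was lower. Without high-fat females 4 and 5, Lyl1, Id2, Smad6, Tgfbr2, Klf4, Podxl, Kcnj8 and Pf4 were no longer called. By diet in females, the red cell gene Slc4a1 (1.92) was called higher and the nuclear RNA Neat1 lower (-1.11, and -0.64 without high-fat females 4 and 5), and on average over the sexes Acta2 (0.52), Mmrn2 (0.23), Fabp4 (0.25), Cd36 (0.25), Col1a2 (0.25), Col1a1 (0.27), Col3a1 (0.33) and Slc4a1 (1.196) were called higher and Nppa (-0.89) and Tnnt2 (-0.24) lower.

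Chow male 4, counted per gene and on its own scale, had 170 CPM for Cdh5, 159 for Pecam1, 213 for Kdr, 146 for Flt1, 70.5 for Tek, 121 for Tie1, 100.5 for Vwf, 165 for Eng, 36.6 for Emcn and 26.4 for Cldn5. These values are not comparable with those of the other libraries.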
